A study of Homo sapiens with 6 samples.

Results

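Ferlins and annexins are calcium-dependent membrane-binding proteins that act when the plasma membrane is torn. The genes described here are the ferlins DYSF and MYOF, the annexins ANXA1, ANXA2, ANXA4, ANXA5, ANXA6, ANXA7 and ANXA11, and S100A10, the small partner of annexin A2. They were chosen by symbol, and all 10 were found among the 15243 genes of a comparison table, each as 1 entry. The choice was made with the strongly negative value of DYSF in this comparison already known, so the values of these genes are a description and carry no test of their own.

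The series profiled ribosome-protected RNA (Ribo-seq), which reads the parts of mRNAs that ribosomes occupy, in NCI-H1299, an established human lung cancer cell line labelled lung adenocarcinoma. Its 6 samples were 3 controls, labelled shControl and named puro in the design text, and 3 with a short hairpin RNA against ALDH18A1, labelled shALDH18A1. All are of the same line and share the same growth medium. ALDH18A1 encodes P5CS, an enzyme of proline synthesis, and the series title presents P5CS as a regulator of translation that binds RNA. The labels name total RNA as the molecule, and they do not say whether the replicates are separate cultures or how many hairpins were used; the table's p-values may then measure technical spread only. The data are a finished comparison made by the authors, which lists for each gene its mean normalized count, the fold change, the standard error (SE) of that change and p-values, but no value for single samples. Spread between replicates is therefore seen only through the SE, and the depth of the libraries is unknown.

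The sources used here do not name the reference group. The comparison carries the label DTEG, which they do not spell out, so the quantity compared may be footprints alone or footprints over mRNA. "Higher" and "lower" below give the sign per the authors' deposited table, and no direction between knockdown and control follows from them. Fold changes are read as log2 from the layout of the columns, ± is the table's SE, and a gene is called where the table's adjusted p is under 0.05. For the targeted gene ALDH18A1 the authors' deposited table gave −0.19 ± 0.12 (adjusted p = 0.173), which is no call, so the sign could not be anchored on it. Per the authors' deposited table, of the cell type markers, KRT8 and KRT18, keratins of simple epithelia, had mean normalized counts of 6396 and 6869. The mesenchymal filament gene VIM had 22046. KRT8 and KRT18 were called higher there, at 0.41 ± 0.08 and 0.76 ± 0.10, and VIM lower at −0.28 ± 0.04. Of the other mesenchymal genes listed, FN1 was called higher at 1.20 ± 0.10 and CDH2 lower at −0.26 ± 0.10 per the authors' deposited table. ZEB1, at −0.10 ± 0.18 by the authors' deposited table, was not called. The lung lineage regulator NKX2-1 (3.24) and the epithelial cadherin CDH1 (1.95) had low mean normalized counts by the authors' deposited table. So had the keratin gene KRT7 (5.32), called lower at −1.18 ± 0.48, and the epithelial adhesion gene EPCAM (11.4), not called, per the authors' deposited table. The spans of KRT8 and KRT18 overlap, and the surfactant genes SFTPB and SFTPC were listed and had no values under these symbols. Of the markers of other cells, the 3 endothelial genes summed to a mean normalized count of 16.9 per the authors' deposited table, with none called. Of 5 leukocyte genes, 2 had values that summed to 2372 per the authors' deposited table. These were CD68, a lysosomal membrane gene, with a mean normalized count of 2213 and no call, and the integrin gene ITGAM, with 159 and a fold change of −4.39 ± 0.21, per the authors' deposited table.

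Membrane repair begins when calcium enters through a tear. Ferlins, large proteins anchored in vesicle membranes and built from repeated C2 domains, take part in bringing and fusing vesicles at the wound. Annexins bind the exposed acidic lipids and gather at its edge, where they cross-link, bend and seal the membrane, and S100 proteins join annexins into larger complexes. Other machinery acts beside them: ESCRT complexes pinch off damaged membrane, calpains cut the cortical skeleton, lysosomes fuse with the surface, and caveolae take membrane in. DYSF is best known from skeletal muscle, where its loss causes muscular dystrophy, and MYOF from fusing myoblasts and from carcinoma cells.

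The promoters of 6 of the genes are shown as the sequence context of the lowest and the highest values in the family: both ferlins, annexin A2 with its partner S100A10, and ANXA6 and ANXA11, the only members called higher. Each line gives the 150 bases before the annotated transcription start, 5′ to 3′ on the strand of the gene, from RefSeq on GRCh38.p14. Capitals mark matches to the motifs described after the sequences.
DYSF (chr2:71453411-71453560, plus strand): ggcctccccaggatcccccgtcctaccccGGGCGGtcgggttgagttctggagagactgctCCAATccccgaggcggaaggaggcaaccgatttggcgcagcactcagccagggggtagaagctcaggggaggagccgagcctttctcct
MYOF (chr10:93482335-93482484, minus strand): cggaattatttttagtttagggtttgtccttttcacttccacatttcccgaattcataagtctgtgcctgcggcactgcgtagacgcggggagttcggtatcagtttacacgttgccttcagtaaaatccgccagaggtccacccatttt
ANXA2 (chr15:60397987-60398136, minus strand): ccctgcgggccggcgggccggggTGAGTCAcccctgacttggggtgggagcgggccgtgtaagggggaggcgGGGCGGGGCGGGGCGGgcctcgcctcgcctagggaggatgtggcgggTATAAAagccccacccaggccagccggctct
S100A10 (chr1:151993860-151994009, minus strand): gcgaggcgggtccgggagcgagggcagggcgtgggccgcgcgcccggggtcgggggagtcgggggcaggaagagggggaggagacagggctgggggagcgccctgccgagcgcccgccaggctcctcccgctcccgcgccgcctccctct
ANXA6 (chr5:151157780-151157929, minus strand): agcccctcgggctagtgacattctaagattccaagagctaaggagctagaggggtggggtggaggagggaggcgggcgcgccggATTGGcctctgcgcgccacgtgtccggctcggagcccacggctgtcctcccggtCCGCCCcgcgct
ANXA11 (chr10:80205809-80205958, minus strand): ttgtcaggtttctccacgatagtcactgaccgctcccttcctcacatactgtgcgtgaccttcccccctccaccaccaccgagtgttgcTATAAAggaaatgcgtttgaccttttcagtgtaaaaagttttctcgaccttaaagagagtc

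The 10 promoter windows of 300 bases, 250 before and 50 after the outermost annotated start, had little in common. Their GC content ran from 37.7% in ANXA1 to 78.0% in ANXA4, around a median of 58.7% over all 35116 RefSeq windows. The GC box (GGGCGG, both strands) occurred in 7 of the 10 windows and in 45.0% of all windows, and the CCAAT box (CCAAT, both strands) in 4 of the 10 and in 34.6% of all. The TATA box (TATAAA, both strands) was found in ANXA1, ANXA2 and ANXA11, 3 of the 10, against 11.5% of all windows. Counting the base before the start as −1, it began at −31 in both ANXA1 and ANXA2 and at −61 in ANXA11. The windows of all genes are not limited to the outermost start, and on that footing these 10 genes have 14 windows. The GC box occurred in 9 of the 14, the CCAAT box in 5 and the TATA box in 3. ANXA2 also held the only AP-1 site (TGANTCA, which reads the same on both strands), against 7.71% of all windows, and 3 GC boxes that overlap each other. None of the 10 held the TEAD site (GGAATG, both strands), which 4928 of the 35116 windows hold. MYOF had none of these 5 motifs in its window, and the single match of S100A10, a GC box, lay before the stretch printed. DYSF and MYOF, the related ferlins, shared no match, and neither did ANXA6 and ANXA11. A match is a run of letters and not a measured site of binding.

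**Figure D1:**
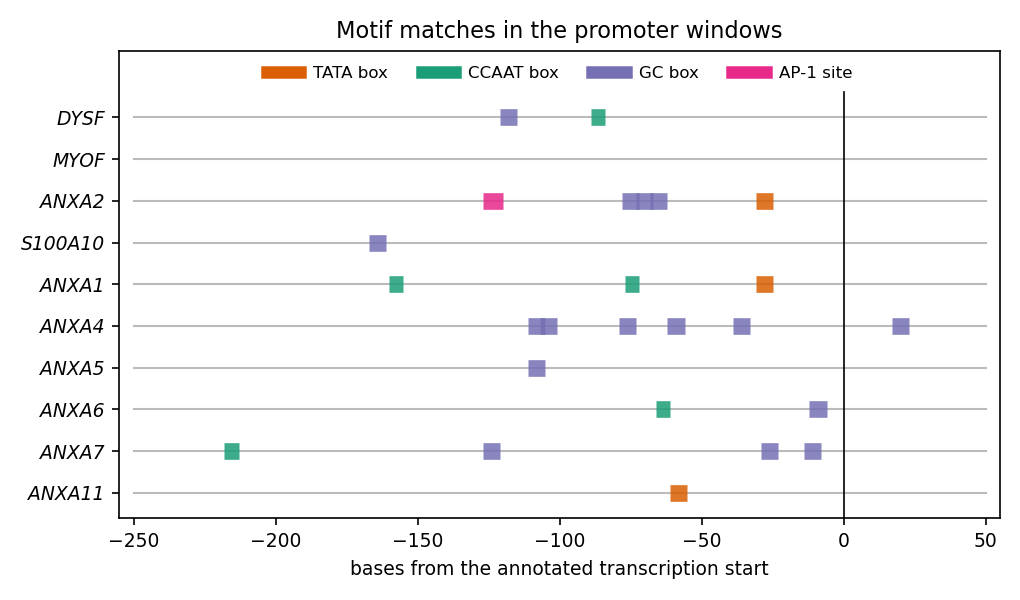
Positions of motif matches in the promoter windows of the 10 genes, with bases from the annotated transcription start on the x axis and 1 gene per line. Coloured blocks are matches on either strand, to scale, and grey lines are the windows of 300 bases. TATA boxes stand in ANXA1, ANXA2 and ANXA11, and MYOF has no match.

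Most of the 10 genes were lower, led by DYSF and S100A10, and the annexins ANXA6 and ANXA11 were higher. By their adjusted p in the authors' deposited table, 7 were called lower (29.4% of all genes were), 2 higher (28.9% of all genes) and 1 was not called, so that 9 were called in either sign against 58.4% of all genes. These shares give the background only, since the genes were picked from this comparison. By the authors' deposited table, the median log2 fold change of the 10 was −0.65, beside 0.02 over all genes, and the values ran from −3.22 for DYSF to 1.34 for ANXA11. Beyond 1 on the log2 scale stood DYSF and S100A10 on the lower side, where 8.97% of all genes were called, and ANXA11 on the higher side, where 14.7% were. In either sign, 23.7% of all genes pass that cut. The authors' own marks up and down fall on these 3 genes, and the other 7 are marked stable.

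**Figure D2:**
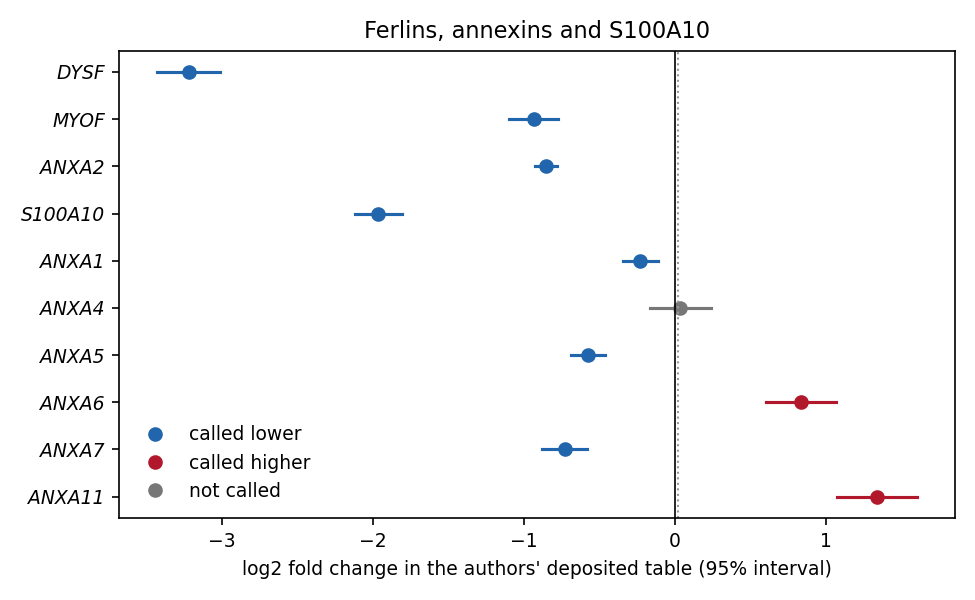
Log2 fold change of each gene in the authors' deposited table (x axis, points) with its 95% interval from the table's SE (lines), grouped by family; the dotted line is the median of all genes. DYSF at −3.22 and S100A10 at −1.96 lie farthest to the left, ANXA6 and ANXA11 lie to the right of 0, and the interval of ANXA4 spans 0.

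The ferlins were both lower, by very different amounts. DYSF (Entrez ID 8291), dysferlin, which muscle fibres need to reseal their surface, spans 71453561 to 71686763 of chromosome 2 (GRCh38). Its mean normalized count was 292 and its log2 fold change −3.22 ± 0.11 per the authors' deposited table, a 9.32-fold difference with an adjusted p of 8.09e-203. Read as a natural log, the same value would be a 25.0-fold difference. Its 95% interval ran from −3.43 to −3.01. In the authors' deposited table, its test statistic was number 2 from the bottom of all 15243 genes. By fold change alone it was number 101 from the bottom, and 96 of the 100 genes below it had a smaller mean normalized count. Among the 1524 genes in its bin of similar abundance, 1 of 10 equal bins, 0.197% had a lower fold change per the authors' deposited table.

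MYOF (Entrez ID 26509), myoferlin, which acts in myoblast fusion and in membrane traffic of growth factor receptors, lies on chromosome 10 from 93306429 to 93482334. Per the authors' deposited table, its mean normalized count was 5741 and its log2 fold change −0.94 ± 0.08 (adjusted p = 2.70e-29), a 1.91-fold difference. In the authors' deposited table, 6.82% of the genes of its abundance bin were lower. DYSF thus stood 2.28 below MYOF on the log2 scale by the authors' deposited table, with 95% intervals of −3.43 to −3.01 and −1.10 to −0.78. The value of DYSF was known when the genes were chosen, so this difference is a description and was not tested. By the authors' deposited table, the other ferlin genes with values had few counts: FER1L5 had a mean normalized count of 2.58 and a fold change of 1.45 ± 1.14, and FER1L6 1.87 and −0.54 ± 0.95. Neither was called, and OTOF and FER1L4 were listed and had no values under these symbols.

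DYSF is a muscle gene, so the listed skeletal muscle markers are given beside it. Of 8 listed, 6 had values per the authors' deposited table; 2 were called lower, where 29.4% of all genes were, and none higher. DES, the muscle intermediate filament gene, stood at −3.42 ± 0.60 with a mean normalized count of 15.9 by the authors' deposited table, and MYH2, a fast myosin heavy chain, at −1.60 ± 0.45 with 12.9. ACTA1, skeletal actin, which had most of the counts of the list (812), was at −0.11 ± 0.17 per the authors' deposited table and TTN, the sarcomere spring, at −0.12 ± 0.17, neither called. Per the authors' deposited table, the summed mean normalized count of the list was 955. The muscle regulators MYOD1 and MYOG were listed and had no values under these symbols. The part of these genes in the value of DYSF was not tested. In bulk samples of the same line, a change in some cells and a change in all cells cannot be told apart.

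Annexin A2 and S100A10, which form a heterotetramer at the inner face of the plasma membrane and bind plasminogen and AHNAK, were both lower. ANXA2 (Entrez ID 302) lies on chromosome 15 from 60347151 to 60397986. It had a mean normalized count of 14057 and a log2 fold change of −0.85 ± 0.04 by the authors' deposited table (adjusted p = 4.10e-114), a 1.81-fold difference. S100A10 (Entrez ID 6281), the dimer at the core of that complex, lies on chromosome 1 from 151982915 to 151993859. By the authors' deposited table, its mean normalized count was 3356 and its log2 fold change −1.96 ± 0.08 (adjusted p = 4.32e-135), a 3.90-fold difference. S100A10 therefore lay 1.11 below ANXA2 on the log2 scale per the authors' deposited table, with 95% intervals of −2.12 to −1.81 and −0.93 to −0.78. This difference was not tested. In the authors' deposited table, of the genes in the most abundant bin, which holds both, 0.459% were lower than S100A10 and 8.79% lower than ANXA2. RefSeq lists 3 pseudogenes of ANXA2 elsewhere in the genome, which can take or lend reads of so abundant a gene, and how such reads were counted is not given in the sources used here.

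The other annexins split. ANXA1 (Entrez ID 301), a glucocorticoid-induced annexin that has been found with dysferlin, was lower by little: −0.23 ± 0.06 with a mean normalized count of 8835 per the authors' deposited table (adjusted p = 2.21e-04), a 1.17-fold difference. ANXA5 (Entrez ID 308), which assembles into lattices on exposed phosphatidylserine, was lower at −0.58 ± 0.06 with a mean normalized count of 2311 per the authors' deposited table (adjusted p = 1.01e-21). ANXA4 (Entrez ID 307), which bends membrane at a wound edge, was the only member not called, at 0.04 ± 0.10 with a mean normalized count of 427 by the authors' deposited table (adjusted p = 0.790). Its 95% interval, −0.16 to 0.24, allows a difference of at most 1.18-fold either way. The span of ANXA4 holds 3 annotated noncoding genes, the longest shared stretch being the 9450 bases of SMANTIS.

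ANXA6 (Entrez ID 309), the annexin with a doubled core, which draws wound edges together, was higher. By the authors' deposited table, its mean normalized count was 964 and its log2 fold change 0.83 ± 0.12 (adjusted p = 6.00e-12), a 1.78-fold difference. In the authors' deposited table, 86.0% of the genes of its abundance bin were lower than it. ANXA6 lies on chromosome 5 from 151100706 to 151157779.

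ANXA7 and ANXA11, the annexins with long, flexible N-termini, went opposite ways at nearly the same mean normalized count, 599.5 and 598.2 per the authors' deposited table. ANXA7 (Entrez ID 310), which with PDCD6 (ALG-2) brings ESCRT proteins to damaged membrane, was lower at −0.73 ± 0.08 by the authors' deposited table (adjusted p = 9.17e-21). ANXA11 (Entrez ID 311), which also binds ALG-2 and ties RNA granules to lysosomes, was higher at 1.34 ± 0.13 per the authors' deposited table (adjusted p = 2.26e-22), a 2.53-fold difference. Their 95% intervals, −0.88 to −0.58 and 1.08 to 1.60, lay on opposite sides of 0. Both are on chromosome 10, ANXA7 from 73375101 to 73414058 and ANXA11 from 80150889 to 80205808, 6.74 Mb apart. On chromosome 2, ANXA4, the member not called, lies 1.63 Mb from DYSF, the lowest.

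Order by fold change, from the lowest, was DYSF, S100A10, MYOF, ANXA2, ANXA7, ANXA5, ANXA1, ANXA4, ANXA6 and ANXA11. Neighbours whose 95% intervals overlapped in this order were MYOF with ANXA2, ANXA2 with ANXA7, ANXA7 with ANXA5, and ANXA1 with ANXA4. The intervals of ANXA6 and ANXA11, 0.61 to 1.06 and 1.08 to 1.60, did not quite meet. The SE may hold technical spread only, so the overlaps are no test of the order. Counts of different genes are set side by side here only as counts, and abundance means the mean normalized count. They are not read as levels of expression, because no length of the counted region is given. Per the authors' deposited table, all 10 had more counts than the table's median of 150.2, from 292 to 14057. Their SEs, 0.04 to 0.13, were all below the table's median of 0.18.

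**Figure D3:**
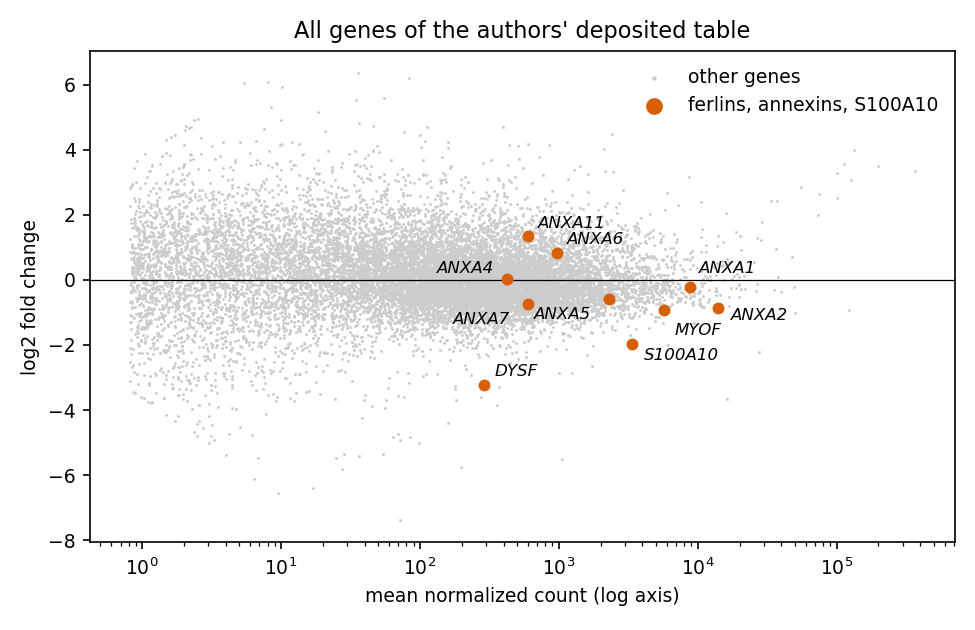
Log2 fold change (y axis) against mean normalized count (x axis, log scale) for all 15243 genes of the authors' deposited table in grey, with the 10 ferlin, annexin and S100A10 genes in orange. All 10 lie right of the median count of 150.2, and DYSF and S100A10 lie at the lower edge of the genes of similar abundance.

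Among other annexin and S100 genes, more were called lower than higher. ANXA3, the only other annexin with more than a few counts (390), was lower at −1.61 ± 0.16 by the authors' deposited table (adjusted p = 6.42e-23). ANXA8, ANXA8L1 and ANXA9 had mean normalized counts of 2.71, 1.99 and 9.04 per the authors' deposited table, and none was called; ANXA8 and ANXA8L1 are near-identical copies whose reads cannot be told apart. Of 9 S100 genes beside S100A10, 5 were called lower and 2 higher, with a median of −0.97 per the authors' deposited table against 0.02 over all genes. That is 55.6% lower and 22.2% higher, beside 29.4% and 28.9% of all genes. S100A11, an annexin A1 partner that lies 38647 bases from S100A10, was lower at −0.97 ± 0.15 with a mean normalized count of 2156 by the authors' deposited table (adjusted p = 3.40e-10). S100A2 (−1.57 ± 0.26), S100A3 (−2.44 ± 0.42) and S100A4 (−1.50 ± 0.35) were lower per the authors' deposited table, at mean normalized counts of 80.6, 27.7 and 13.3. S100A13, which takes part in nonclassical secretion, was higher at 0.34 ± 0.09 per the authors' deposited table, and it shares its span with S100A1 and CHTOP; it was picked out after its value was seen. The spans of S100A4 and S100A5 share 65 bases.

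Genes listed for the cell cortex, not all of them partners of dysferlin, had calls of both signs. Of 14 AHNAK, calpain and related genes with values, 6 were called higher, 4 lower and 4 not, with a median of 0.33 by the authors' deposited table. The share called lower, 28.6%, was near the 29.4% of all genes, and the share called higher was 42.9% beside 28.9%. AHNAK, the giant scaffold that binds dysferlin and S100A10, was higher at 0.56 ± 0.09 with a mean normalized count of 25456 per the authors' deposited table (adjusted p = 7.31e-10). PRX, the periaxin gene, was higher at 1.60 ± 0.21 per the authors' deposited table, and PARVB, a parvin that binds dysferlin, lower at −1.34 ± 0.17. In the authors' deposited table, the calpain gene CAPN7, whose product binds ESCRT-III, was lower at −1.13 ± 0.11. The main calpain subunits, picked out after their values were seen, differed in sign. CAPN1 was at −0.54 ± 0.13, CAPN2 at 0.65 ± 0.12 and CAPNS1 at 0.64 ± 0.13 per the authors' deposited table, all called.

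Most ESCRT genes were lower. Of 25 measured, 18 were called lower, 1 higher and 6 not, which is 72.0% called lower against 29.4% of all genes. Per the authors' deposited table, their median was −0.66, beside 0.02 over all genes. CHMP3, an ESCRT-III subunit, was at −1.56 ± 0.10, CHMP1A at −0.99 ± 0.10 and CHMP1B at −0.77 ± 0.08 by the authors' deposited table. TSG101, the ESCRT-I subunit that starts assembly, was lower at −0.99 ± 0.10 per the authors' deposited table. PDCD6IP (ALIX), which links ALG-2 to ESCRT-III and was picked out after its value was seen, was lower at −0.71 ± 0.10 per the authors' deposited table. In the authors' deposited table, the single member called higher was MVB12A, an ESCRT-I subunit picked out after its value was seen, at 0.55 ± 0.19. CHMP3 shares 60014 bases with the readthrough gene RNF103-CHMP3 and CHMP1B shares 3032 bases with GNAL; among ESCRT genes with no overlap, 7 of 12 were called lower, 58.3%.

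Caveola and vesicle fusion genes had calls of both signs. Of 10 caveola and EHD genes, 5 were called lower and 2 higher, with a median of −0.42 per the authors' deposited table. These are 50% and 20% of the 10, beside 29.4% and 28.9% of all genes. EHD1, an ATPase of membrane recycling, was lower at −1.43 ± 0.09, EHD4 at −1.01 ± 0.12 and CAVIN1, a coat protein of caveolae, at −0.86 ± 0.09 per the authors' deposited table. CAV1, the caveolin that CAVIN1 binds, was higher at 1.12 ± 0.10 by the authors' deposited table (adjusted p = 7.26e-27). By the authors' deposited table, of 17 genes of lysosome exocytosis and fusion, 8 were called lower and 2 higher, with a median of −0.33. These are 47.1% and 11.8%, beside 29.4% and 28.9% of all genes. The membrane fusion genes STX3 (−2.22 ± 0.14), VAMP3 (−1.21 ± 0.12), VAMP7 (−0.93 ± 0.08) and NAPA (−0.99 ± 0.11) were lower per the authors' deposited table. MCOLN1, the lysosomal calcium channel, was higher at 0.70 ± 0.11 by the authors' deposited table, and was picked out after its value was seen.

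**Figure D4:**
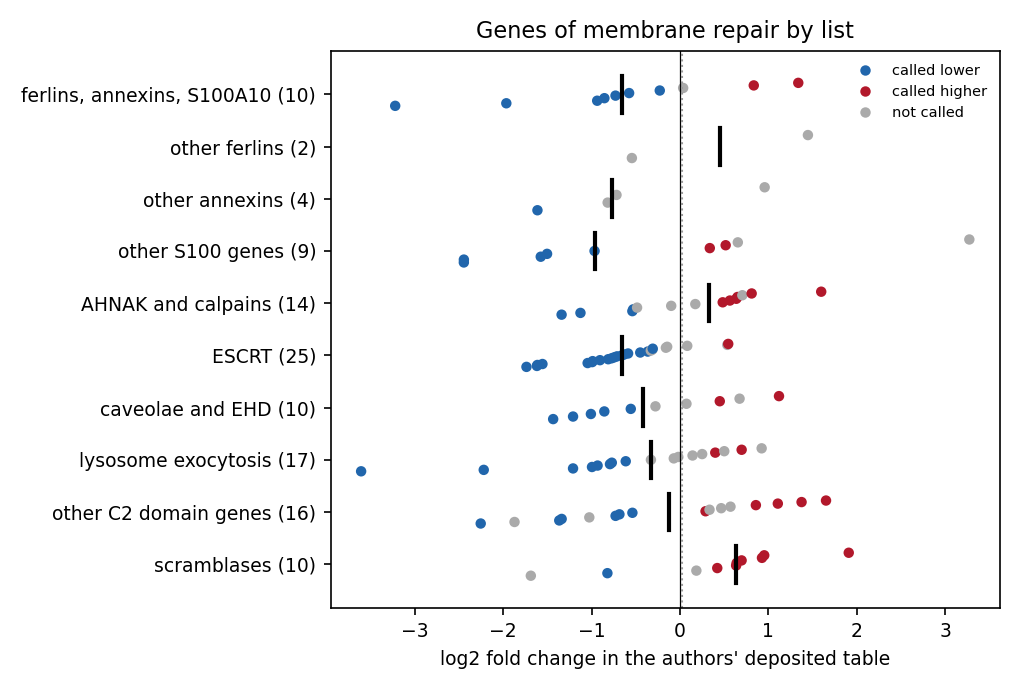
Log2 fold change in the authors' deposited table (x axis) of each measured gene of membrane repair, 1 line per list with the number of genes in brackets; points are genes, black bars the median of the list, and the dotted line the median of all genes. ESCRT genes lie mostly left of 0 with a median of −0.66, and scramblases mostly right with a median of 0.64.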

How the data were processed

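The reads were handled with fastp 0.23.2, with STAR 2.7.10a on hg38 and with featureCounts, per the submitters' processing notes; the sources used here do not give their settings, the annotation, the use of strand or the comparison's tool. Of 15244 deposited entries, 15243 genes remained with 1 entry (the smallest p) per symbol. The deposited mean per gene is, per the file headers, a signal made of counts normalized across libraries. The deposited fold change and SE are taken as log2, and the deposited score is the fold change over its SE. Deposited p-values and adjusted p-values were used as given. The 95% intervals are the normal quantile times the SE.

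Members, 9 lists of related genes and the motifs were chosen with earlier results of these data known. Genes named by rule were all members, ALDH18A1 and up to 4 of each list with the smallest p. All called members of lists with at most 5 calls were also named. Cell type markers came from separate lists. Other genes named with a fold change were picked out after their values were seen. No set test or test per sample was run, since the table holds 0 columns of samples. Overlaps are between RefSeq spans of GRCh38.p14, to which all 10 members matched by Entrez ID. Adjustments were tested on simulated data. Alternatives were stricter thresholds, other adjustments, a fold minimum, centring, an abundance filter and protein-coding genes. Software was Python 3.11.15, pandas 2.3.3, numpy 2.4.6, matplotlib 3.10.9 and scipy 1.17.1.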

Additional observations from a re-analysis of the deposited data

How the results depend on the processing

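The counts of the 10 genes, 9 called, 7 lower and 2 higher, were the same at adjusted p thresholds of 0.01 and 0.001, with Benjamini-Yekutieli adjustment, after centring on the median of all genes (0.02), with the table limited to genes from the median abundance up or to protein-coding genes. With Bonferroni adjustment ANXA1 was no longer called, which left 8 called and 6 lower. With a log2 fold change beyond 1, and by the authors' marks, an alternative added after seeing the data, 3 were called, 2 lower and 1 higher, by construction of those cuts. The median of the 10 was −0.67 after centring. Of all listed genes, 73 were called, 48 lower and 25 higher; beyond 1 or by the authors' marks these were 27, 21 and 6. With Bonferroni adjustment 48 were called, 13 of them higher. Among genes that overlap no other gene, also added after seeing the data, 31 of 46 listed genes were called, 20 lower and 11 higher, fewer because fewer genes were counted. ESCRT genes called lower numbered 18, with 5 beyond 1 or by the authors' marks and 7 of 12 without overlaps. Scramblase genes called higher numbered 7, with 1 beyond 1 or by the authors' marks, 3 with Bonferroni adjustment, 3 of 4 from the median abundance up and 2 of 5 without overlaps. Of 59 genes of the text checked singly, none changed sign under these alternatives, an outcome fixed in advance. Only centring alters the fold changes, by 0.02, which is less than the size of any of the 59 values. Calls were lost by 24 with a log2 fold change beyond 1 or the authors' marks and by 9 with Bonferroni adjustment. Benjamini-Yekutieli adjustment and a threshold of 0.001 each took the call of 1. CAPNS1 and the cell type markers KRT7, KRT8, KRT18, EPCAM, CDH1, NKX2-1, VIM, CDH2, FN1, ZEB1 and CD68 were not among the 59. Of these, KRT7 and CDH2 had adjusted p of 0.025 and 0.023 per the authors' deposited table, above the threshold of 0.01. No paired analysis was possible because the values are a finished comparison with no column per sample, and for the same reason no replicate could be left out. Depth is unknown, so precision rests on the SE alone.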

Other observations

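Genes listed as scramblases, a class of which some members expose phosphatidylserine, the lipid that annexins bind, had more calls on the higher side. Of 10 measured, 7 were called higher and 1 lower, 70.0% higher against 28.9% of all genes, with a median of 0.64 in the authors' deposited table beside 0.02 over all genes. This list too was chosen with earlier results of these data known, so its share is a description. ANO5, a muscle disease gene whose loss resembles that of DYSF, was at 1.91 ± 0.32 with a mean normalized count of 25.8 in the authors' deposited table. ANO6, the calcium-activated scramblase of platelets, was higher at 0.64 ± 0.11, PLSCR3 at 0.95 ± 0.18 and XKR6 at 0.93 ± 0.22 in the authors' deposited table. PLSCR1, the single member called lower, picked out after its value was seen, was at −0.82 ± 0.19 in the authors' deposited table.

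Of 16 other genes of proteins with C2 domains, 5 were called higher and 6 lower. These shares, 31.2% and 37.5%, were near the 28.9% and 29.4% of all genes. ESYT1 and ESYT2, which tether the endoplasmic reticulum to the plasma membrane, were higher at 1.65 ± 0.12 and 1.37 ± 0.12 in the authors' deposited table. Among copines, calcium-dependent lipid binders, CPNE1 was higher at 1.11 ± 0.14 and CPNE7 lower at −2.25 ± 0.16 in the authors' deposited table.

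ANXA2 had the smallest SE of all 15243 genes per the authors' deposited table, 0.04, and 99.6% of genes had a lower mean normalized count. S100A6, a partner of annexin A11, had a mean normalized count of 1.52 and, per the authors' deposited table, a fold change of 3.27 ± 2.46, which was not called. The whole S100A6 span, 1393 bases, is overlapped by the annotated gene LOC124904423, so how many of its reads were counted is unknown. VAMP8, a fusion protein of lysosomes, had the lowest value of the listed genes, −3.61 ± 0.83, at a mean normalized count of 9.42 in the authors' deposited table. S100A6 and VAMP8 were picked out after their values were seen.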
